A study of Mus musculus with 4 samples.

Results

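The nuclear genes of oxidative phosphorylation were followed in tibialis anterior (TA), a shin muscle of mostly fast fibres, and in the heart of 9-day-old mice lacking MG56, a membrane protein of the sarcoplasmic reticulum that Hhatl encodes. Genes were taken by their symbol in the platform annotation: symbols starting with Ndufa, Ndufb, Ndufc, Ndufs, Ndufv, Uqcr, Cox4i, Cox5, Cox6, Cox7, Cox8 or Atp5, together with Sdha, Sdhb, Sdhc, Sdhd and Cyc1. The rule gave 91 of 18193 genes: 35 of complex I, 8 complex I assembly factors that share the Ndufa prefix, 4 of complex II, 9 of complex III, 18 of complex IV and 17 of complex V. Ndufa4, named for complex I but now counted with cytochrome c oxidase, was placed in complex IV. Its paralog Ndufa4l2 was left among the 35 genes of complex I, a placement by name and not as a known subunit. The groups were MG56-knockout (KO) TA, wild-type (WT) TA, KO heart and WT heart, all on the C57BL/6J background. Each group was 1 Affymetrix array hybridised with mixed RNA, from 3 mice for the knockouts and from a number of wild-type mice that the labels leave unstated. No replicate error or test can therefore be given, and every difference below is a difference between pools. In RNA of whole tissue, fewer cells of a type and less RNA per cell cannot be told apart.

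Oxidative phosphorylation couples the oxidation of NADH and succinate to ATP synthesis in the inner mitochondrial membrane. Complexes I and II pass electrons to ubiquinone, complex III passes them on to cytochrome c, complex IV gives them to oxygen, and complex V, the ATP synthase, uses the proton gradient that complexes I, III and IV build. Heart muscle relies on this pathway throughout, whereas fast-twitch muscle also draws on glycolysis. Complex IV has subunits with a ubiquitous isoform and an isoform typical of heart and skeletal muscle.

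Each probe set gave 1 linear signal intensity per array, and the probe set with the highest mean over the 4 arrays stood for a gene. Signals under 101.3, the median of all signals, were raised to that floor, and a gene counted as measured in a comparison if 1 of its arrays reached the floor. The targeted gene Hhatl had a signal of 1078 in KO TA and 5491 in WT TA, and of 880 in KO heart and 2110 in WT heart. All 9 skeletal muscle fibre markers were above the floor in both TA pools, and all 9 cardiomyocyte markers in both heart pools, whereas the cardiac genes Tnni3, Myl7, Nppa and Ryr2 were under it in both TA pools. Of the oxidative phosphorylation genes, 88 reached the floor on at least 1 array. Cox4i2, Cox7b2 and Ndufb4 did not, Ndufb4 on the only probe set that carries its symbol alone. A mean signal of at least 10000 was reached by 70 of the 91.

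In KO TA the pathway stood slightly below WT TA, with small differences for nearly every gene. Of 87 measured genes, 74 (85.1%) had a lower signal in KO TA, against 51.2% of all 11528 measured genes. The median log2 ratio of KO over WT was -0.11, against -0.01 over all measured genes. The size of the differences was small: 12 genes (13.8%) were at least 1.2-fold lower in KO TA, where 18.4% of all genes were, and 3 (3.45%) at least 1.2-fold higher, where 17.8% of all genes were. At 1.5-fold there was 1 gene lower and 1 higher, against 4.44% and 4.2% of all genes, so the counts past a fold stood at or under those of the array as a whole.

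Bright genes as a class were also lower in KO TA. Among 323 other measured genes with a mean signal of at least 10000, 65.9% were below 0, with a median of -0.06, and 12.4% were at least 1.2-fold lower and 5.26% higher. Among the 70 oxidative phosphorylation genes of that brightness, 63 were below 0 with a median of -0.11, 8 were at least 1.2-fold lower and none was higher by that much. Quantile normalization, which gives all arrays the same distribution of signals, moved the median over all measured members to -0.05. Of the 9 skeletal muscle fibre markers 8 were lower in KO TA, and their summed signal was 285828 in KO TA and 330755 in WT TA, and that of 5 proliferation markers 2586 in KO TA and 5945 in WT TA; their part in the shift was not tested.

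In heart the pathway again stood slightly below WT. Of 88 measured genes, 63 (71.6%) were lower in KO heart, against 50.3% of all 11452 measured genes, and the median log2 ratio was -0.07, against -0.002 over all genes. At least 1.2-fold lower were 10 genes (11.4%), against 16.7% of all genes, and 2 (2.27%) were at least 1.2-fold higher, against 15.6%. No gene of the pathway reached 1.5-fold on the probe sets used, a fold at which 4.19% of all genes were lower and 2.67% higher. The 315 other bright genes had a median of -0.05, with 59.4% below 0, 10.2% at least 1.2-fold lower and 4.44% higher. The 70 bright oxidative phosphorylation genes had a median of -0.06, with 51 below 0, 4 at least 1.2-fold lower and none higher. The proliferation markers summed to 2953 in KO heart and 7600 in WT heart. The brown fat gene Ucp1 had a signal of 30.2 in KO heart and 328 in WT heart. Cidea, another of the 4 brown fat markers, had 1878 in KO heart and 2216 in WT heart. Ppargc1a of the same list went the other way, with 5865 in KO heart and 3770 in WT heart. The 4 markers summed to 7785 in KO heart and 6354 in WT heart. The part of the proliferation or brown fat markers in the heart ratios was not tested.

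**Figure D1:**
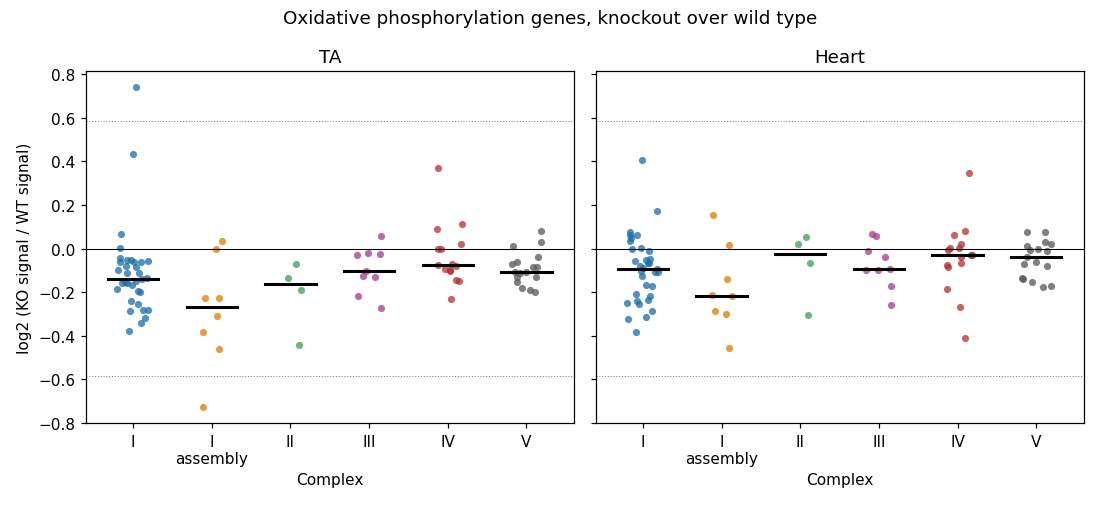
Log2 ratio of KO over WT signal for each measured gene (points), by respiratory complex, in TA (left) and heart (right). Black bars are medians and dotted lines mark 1.5-fold; most points lie just under 0, with medians between -0.27 and -0.08 in TA and between -0.22 and -0.02 in heart, and Ndufb1 and Ndufaf6 are the only points past 1.5-fold, both in TA.

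**Figure D2:**
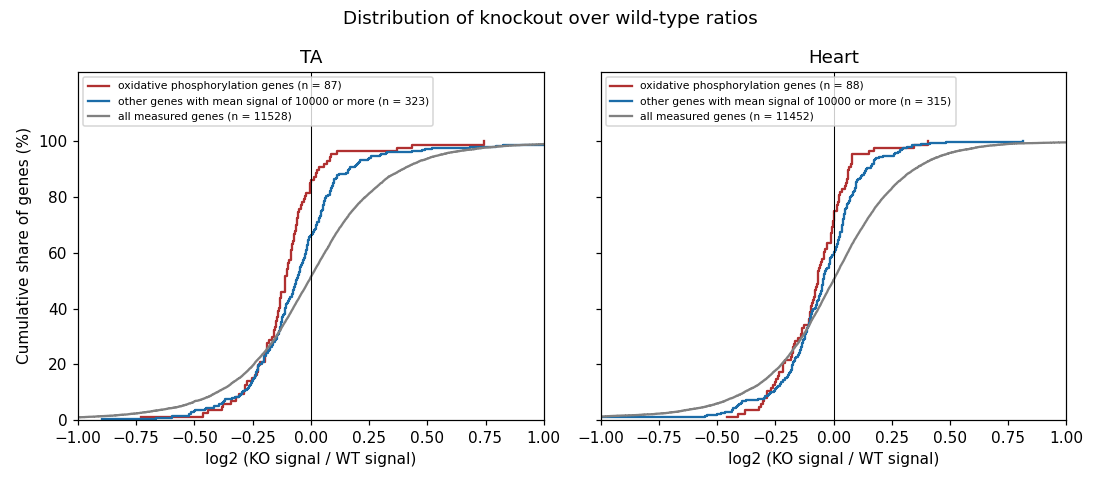
Cumulative share of genes by log2 ratio of KO over WT signal in TA (left) and heart (right), for oxidative phosphorylation genes, other genes with a mean signal of at least 10000, and all measured genes. The curve of oxidative phosphorylation genes crosses 0 at 85.1% in TA and 71.6% in heart, above the bright genes (65.9% and 59.4%) and all genes (51.2% and 50.3%); the axis is limited to ratios between -1 and 1.

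Complex I oxidises NADH and is the largest of the complexes. In TA 30 of its 34 measured genes were lower in the knockout pool (median -0.14), and in heart 26 of 34 (median -0.09). All 6 measured core subunits, which form the path of the electrons from NADH to ubiquinone, were lower in KO TA, from Ndufs8 at -0.38 to Ndufv1 at -0.06. Ndufs8, an iron-sulfur subunit of the arm that leads to ubiquinone, had a signal of 11915 in KO TA and 15497 in WT TA, and of 14106 in KO heart and 16818 in WT heart. Its KO signals were the lower ones in both tissues on this probe set, by 1.30-fold in TA and 1.19-fold in heart. Of its 5 other probe sets, 1 dim one gave 0.92 in TA and another 0.17 in heart. The other core subunits differed less, and Ndufs1, the largest of them, was 1.11-fold lower in TA and 1.12-fold lower in heart. Ndufv1, which binds NADH and the flavin, had a signal of 12193 in KO TA and 12726 in WT TA, and of 19719 in KO heart and 18694 in WT heart. Its TA ratio of -0.06 had no settled sign, since another of its probe sets gave 0.07.

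Among the accessory subunits, which surround the core, Ndufb10 of the membrane arm had a signal of 15319 in KO TA and 19431 in WT TA, 1.27-fold lower, and of 17027 in KO heart and 19793 in WT heart. Ndufb6, also of the membrane arm, differed more in heart, with 13750 in KO heart and 17918 in WT heart, 1.30-fold lower, against 15434 in KO TA and 16681 in WT TA. A second probe set of Ndufb6 gave ratios of -0.19 in heart and -0.10 in TA. Ndufs5 was 1.25-fold lower in KO heart, with a signal of 10758 against 13452 in WT heart, and 1.07-fold lower in KO TA. These genes had the lower signal in the knockout pool of both tissues. In the opposite direction, Ndufb11 had a signal of 28463 in KO heart and 25254 in WT heart, a ratio of 0.17, and of 20947 in KO TA and 21791 in WT TA.

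The genes with the highest ratios in TA among those counted with complex I were dim. Ndufa4l2, a paralog of Ndufa4 known as a target of hypoxia-inducible factor, had signals of 194 in KO TA and 144 in WT TA, and of 231 in KO heart and 175 in WT heart. Its ratios were 0.43 in TA and 0.41 in heart, higher in the knockout pool of both tissues. Ndufb1, a small membrane-arm subunit, had 423 in KO TA and 253 in WT TA, 1.67-fold higher, but 511 in KO heart and 635 in WT heart, 1.24-fold lower. Each of these genes was read by 1 probe set with its symbol alone, and their signals were far under those of most subunit genes in all 4 pools.

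The assembly factors, which build complex I without staying in it, had the lowest median in TA. Of 8 factors, 7 were lower in KO TA (median -0.27) and 6 in KO heart (median -0.22). At least 1.2-fold lower were 4 of the 8 in TA and 3 in heart, against 18.4% and 16.7% of all genes. Ndufaf6 had a signal of 1558 in KO TA and 2580 in WT TA, 1.66-fold lower, but 976 in KO heart and 878 in WT heart, 1.11-fold higher. It was the only member at least 1.5-fold lower in either knockout pool on the probe sets used. Ndufaf5, which hydroxylates Ndufs7, had 776.5 in KO TA and 1069 in WT TA, and 638 in KO heart and 876 in WT heart, which is 1.38-fold and 1.37-fold lower. Ndufaf1, a factor for the membrane arm, was 1.30-fold lower in KO TA, with 2311 against 3014 in WT TA, and 1.16-fold lower in KO heart. Ndufaf8, a partner of Ndufaf5, was 1.24-fold lower in KO TA and 1.10-fold lower in KO heart. Ndufaf2 and Ndufaf7 had ratios of -0.004 and 0.03 in TA and of -0.30 and -0.22 in heart. Ndufaf3 was 1.17-fold lower in KO TA and 1.22-fold lower in KO heart, and Ndufaf4 was 1.17-fold lower in KO TA with a ratio of 0.02 in heart.

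**Figure D3:**
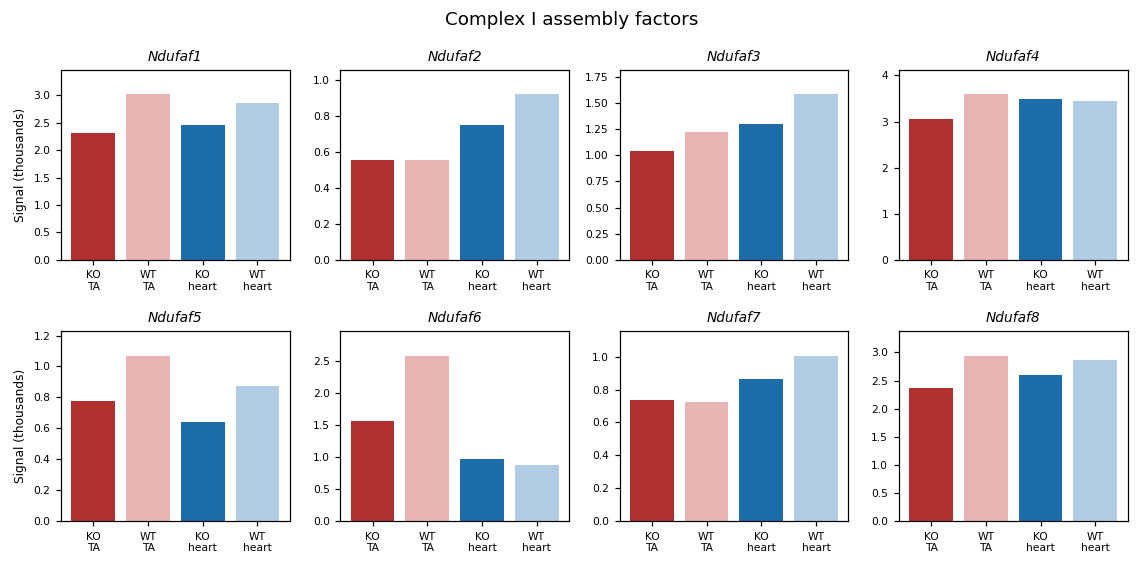
Signal in units of 1000 on a linear scale from 0 of the 8 complex I assembly factors on the 4 arrays, 1 array of pooled RNA per bar. Ndufaf6 shows the largest difference, with 1558 in KO TA and 2580 in WT TA beside 976 in KO heart and 878 in WT heart, and Ndufaf5 is lower in the knockout pool of both tissues.

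Complex II, succinate dehydrogenase, is wholly encoded in the nucleus and also works in the tricarboxylic acid cycle. All 4 genes were lower in KO TA (median -0.16), and 2 of 4 in KO heart (median -0.02). Sdhd, a membrane anchor that binds ubiquinone and haem, had a signal of 8849 in KO TA and 12035 in WT TA, 1.36-fold lower, and of 13336 in KO heart and 16475 in WT heart, 1.24-fold lower. A second probe set of Sdhd gave ratios of -0.34 in TA and -0.48 in heart. On the probe sets used, Sdhd and Ndufaf5 were the only members, 2 of 87, at least 1.2-fold lower in both tissues, where 6.3% of all genes were. Another bright probe set of Ndufs8 was 1.24-fold lower in KO TA and 1.21-fold lower in KO heart. Dim ones of Ndufs4 and Ndufab1 were also at least 1.2-fold lower in both tissues. The iron-sulfur subunit Sdhb was 1.14-fold lower in KO TA and 1.05-fold lower in KO heart, and the flavoprotein subunit Sdha was 1.05-fold lower in KO TA and 1.04-fold higher in KO heart. Sdhc, the other anchor, had ratios of -0.13 in TA and 0.02 in heart.

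In complex III, the cytochrome bc1 complex, 8 of 9 genes were lower in KO TA (median -0.10) and 7 of 9 in KO heart (median -0.09). Cyc1, which encodes cytochrome c1, had a signal of 21552 in KO TA and 26063 in WT TA, and of 23742 in KO heart and 28421 in WT heart. The ratios were -0.27 in TA and -0.26 in heart, the lowest ratio of the complex in both tissues, on its only probe set. The core protein gene Uqcrc2 was 1.16-fold lower in KO TA and 1.01-fold lower in KO heart, while its partner Uqcrc1 was 1.01-fold and 1.07-fold lower. The Rieske iron-sulfur protein gene Uqcrfs1 had ratios of -0.13 in TA and -0.04 in heart. Uqcrq, a small subunit, had 0.06 in TA and -0.17 in heart. In heart Uqcrh, the hinge protein gene, had 0.07 and Uqcrb 0.06, but their other probe sets gave -0.08 and -0.24.

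Complex IV, cytochrome c oxidase, differed least in TA. There 11 of 15 measured genes were lower in the knockout pool (median -0.08), none by 1.2-fold, and in heart 10 of 16 were lower (median -0.03). Cox4i1, the general isoform of subunit 4, had a signal of 29933 in KO TA and 29977 in WT TA, and of 37003 in KO heart and 36928 in WT heart, with ratios of -0.002 and 0.003. Cox5a was 1.07-fold lower in KO TA, and its heart ratio was 0.002. Cox6c had ratios of -0.08 in TA and 0.08 in heart, the second without a settled sign, since its other probe set gave -0.115. Cox7c, a small structural subunit, had 309 in KO TA and 239 in WT TA, and 629 in KO heart and 495 in WT heart. These are ratios of 0.37 and 0.35, higher in the knockout pool of both tissues, from a dim probe set. Its other probe set, close to the floor, gave at least 0.19 in TA and was under the floor in both heart pools. Cox6b2, a testis isoform, had 156 in KO heart and 208 in WT heart, a ratio of -0.41, and was under the floor in both TA pools.

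In complex V, 14 of 17 genes were lower in KO TA (median -0.11) and 12 of 17 in KO heart (median -0.04). No gene of the complex reached 1.2-fold in either tissue on the probe sets used. In heart, other probe sets of Atp5o, Atp5k and Atp5j2 were 1.23-fold, 1.22-fold and 1.21-fold lower in the knockout pool. A dim one of Atp5j2 was 1.27-fold higher there. The catalytic head gave ratios from Atp5c1, the rotating central stalk gene, at -0.20 to Atp5b, the catalytic beta subunit gene, at 0.08 in TA. Atp5a1, the alpha subunit gene, had a signal of 25371 in KO TA and 28926 in WT TA, and of 31646 in KO heart and 31158 in WT heart. Atp5b had 35008 in KO TA and 33108 in WT TA, and 37881 in KO heart and 35946 in WT heart, 1.06-fold and 1.05-fold higher. The alpha and beta subunits stand in equal number in the enzyme, and in TA their genes had ratios of -0.19 and 0.08 on the probe sets used. The sign for Atp5a1 depended on the probe set. Another gave -0.24 in TA, and a dimmer one, with 1133 in KO TA and 952 in WT TA, gave 0.25. In heart the lowest ratios of the complex were those of the small membrane subunit genes Atp5mpl and Atp5md, at -0.18 and -0.17, and the highest, beside Atp5b, was that of the c ring gene Atp5g3 at 0.08.

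Both tissues set side by side, 56 of 87 genes were lower in the knockout pool of both, against 30.5% of all genes. Of the other bright genes measured in both tissues, 135 of 312 were lower in both. The difference of the log2 ratios, TA minus heart, had a median of -0.04, between -0.0457 and -0.0018 over the alternatives, with 56 of 87 below 0, against 50% of all 10802 genes measured in both. At least 1.2-fold higher in TA than in heart were the ratios of 3 genes, Ndufb1 at 1.06, Ndufaf2 at 0.29 and Ndufb6 at 0.27, where 21.7% of all genes were, and 1 was at least that much lower, Ndufaf6 at -0.88, where 20.1% were. The second probe set of Ndufb6 gave ratios nearer to each other, -0.10 in TA and -0.19 in heart. Across the 87 genes the ratios of TA and heart correlated with a Pearson r of 0.30 and a Spearman rho of 0.34, against 0.31 and 0.27 across all genes. Across the 312 other bright genes the values were 0.28 and 0.38. These are correlations across genes, which share the arrays and are not replicates.

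Several probe sets read 42 of the genes at a signal of at least 1000. In TA they all gave a lower signal in the knockout pool for 35 of the 42 and a higher one for 1, with a median range of 0.05 between probe sets of a gene. In heart they agreed in sign for 26 of 42, of which 24 were lower, and the median range was 0.12. Among genes named here, the probe sets of Sdha, Sdhc, Atp5a1, Cox5a, Cox6a2, Cox7a2l and Ndufaf4 also disagreed in sign in heart.

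Other genes of the pathway were read from lists. The array had 1 symbol for a subunit encoded in mitochondrial DNA, ND5 of complex I, with a signal of 23398 in KO TA and 27373 in WT TA, and of 50712 in KO heart and 44996 in WT heart. The ratios were -0.23 and 0.17. Of 35 measured assembly factors outside the rule, 29 were lower in KO TA (median -0.19) and 27 in KO heart (median -0.15), against 51.2% and 50.3% of all genes. In TA 8 (22.9%) were at least 1.2-fold lower and 2 (5.71%) higher, against 18.4% and 17.8% of all genes. In heart 9 (25.7%) were at least 1.2-fold lower and 2 (5.71%) higher, against 16.7% and 15.6% of all genes. The farthest were Ttc19, which maintains complex III, at -0.66 and Uqcc1 at -0.50 below 0 in TA, and Nubpl, an iron-sulfur factor of complex I, at 0.80 and Sdhaf3 at 0.31 above. In heart they were Coa7 at -0.74 and Cox18 at -0.41 below, and Sco2 at 0.29 and Tmem126b at 0.27 above.

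Electron and ATP carriers had 10 of 12 genes (83.3%) lower in KO TA (median -0.16) and 8 of 13 (61.5%) in KO heart (median -0.06). Of all genes 51.2% and 50.3% were lower, and of the other bright genes 65.9% and 59.4%. The uncoupling protein gene Ucp3 and the ubiquinone synthesis gene Coq7 had -0.73 and -0.53 in TA, while the electron transfer genes Etfdh and Etfa had 0.10 and 0.06. In heart, Ucp1 had at most -1.69 because its KO signal was under the floor, followed by the mitochondrial creatine kinase gene Ckmt2 at -0.40, and the adenine nucleotide and phosphate carrier genes Slc25a4 and Slc25a3 both had 0.10. Cycs, which encodes cytochrome c, had a signal of 34747 in KO TA and 40787 in WT TA, and of 42608 in KO heart and 44917 in WT heart. Tricarboxylic acid cycle and mitochondrial mass genes had 18 of 23 (78.3%) lower in KO TA (median -0.08) and 19 of 23 (82.6%) in KO heart (median -0.11), beside the same shares. The cycle enzyme genes Dlst and Cs had -0.50 and -0.29 in TA, against 0.12 for the import receptor gene Tomm20 and 0.09 for Suclg2. In heart Dlst and Dlat had -0.37 and -0.35, and Mdh2 and Idh3g 0.11 and 0.10.

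Genes for the upkeep and transcription of mitochondrial DNA lay on both sides of 0, with 5 of 12 lower in KO TA (median 0.10) and 5 of 12 in KO heart (median 0.08), against 51.2% and 50.3% of all genes. Tfb2m and Tfam, a transcription factor and the packaging factor of mitochondrial DNA, were 1.35-fold and 1.33-fold higher in KO TA, with ratios of 0.09 and -0.12 in heart. Mterf2 and Mterf1a had -0.55 and -0.33 in TA, and in heart Tefm and Mterf4 had -0.55 and -0.17 and Mterf1a and Polrmt 0.38 and 0.21. Of 18 regulators of mitochondrial gene expression, 7 were lower in KO TA (median 0.08) and 5 in KO heart (median 0.10). In TA 5 (27.8%) were at least 1.2-fold lower and 4 (22.2%) higher, against 18.4% and 17.8% of all genes. In heart 2 (11.1%) were at least 1.2-fold lower and 3 (16.7%) higher, against 16.7% and 15.6% of all genes. Ppargc1a, the PGC-1alpha coactivator gene, had a signal of 5865 in KO heart and 3770 in WT heart, a ratio of 0.64, and of 1320 in KO TA and 1299 in WT TA, a ratio of 0.02. Nrf1 followed in heart at 0.43, and the lowest there were Sirt3 at -0.37 and Gabpb2 at -0.32. In TA the nuclear receptor gene Esrrb, close to the floor, had 0.64 and Pprc1 0.51, and Sirt3 and Gabpb1 had -0.52 and -0.44. Ppargc1a also stands in the list of brown fat markers, of which Ucp1 and Cidea had the lower signal in KO heart.

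Between tissues, the pathway was lower in TA than in heart, again by small amounts on the probe sets used. In the wild type 72 of 88 genes (81.8%) had a lower signal in TA, against 55.2% of all 11872 measured genes, with a median log2 ratio of TA over heart of -0.16, against -0.07. At least 1.2-fold lower in TA were 32 genes (36.4%), close to the 35.3% of all genes, and 2 (2.27%) were at least 1.2-fold higher, against 27.8% of all genes. At 1.5-fold 6 were lower (6.82%) and 1 higher (1.14%), against 18.0% and 14.5% of all genes. Other genes with a mean signal of at least 10000 had a median of 0.05, with 45.7% below 0 and 30.1% at least 1.2-fold lower. With ratios centred on the median of all genes the members' median was -0.09, and 20 genes were at least 1.2-fold lower. The members' median was -0.25 on the KO arrays and -0.16 on the WT arrays. On the KO arrays 73 of 88 genes were lower in TA, against 53.7% of all genes, and 41 (46.6%) at least 1.2-fold lower, against 35.3%. Across the members the ratios of the KO pair and the WT pair correlated with a Pearson r of 0.80 and a Spearman rho of 0.84, against 0.92 and 0.82 over all 11527 genes measured on both pairs.

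**Figure D4:**
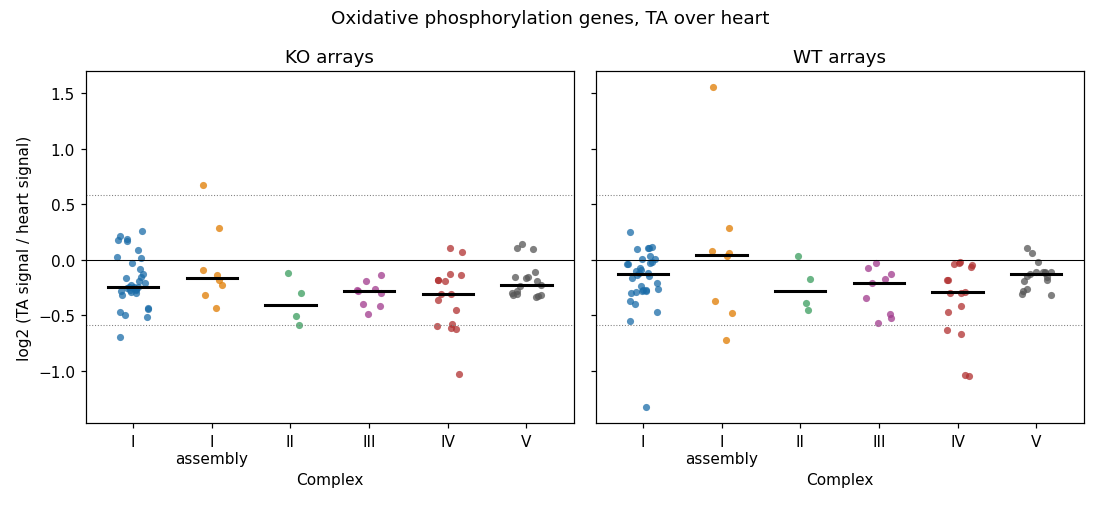
Log2 ratio of TA over heart signal for each measured gene (points), by respiratory complex, on the KO arrays (left) and the WT arrays (right). Black bars are medians and dotted lines mark 1.5-fold; complex III lies wholly below 0 on both pairs, and Ndufaf6 stands highest, at 0.68 on the KO arrays and 1.56 on the WT arrays.

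By complex, the medians of TA over heart on the KO arrays were -0.24 for complex I, -0.16 for its assembly factors, -0.40 for complex II, -0.28 for complex III, -0.31 for complex IV and -0.23 for complex V. On the WT arrays they were -0.13 for complex I, 0.05 for its assembly factors and -0.28 for complex II. For complexes III, IV and V they were -0.21, -0.29 and -0.13 there. The sign for the assembly factors differed between the pairs on the probe sets used only. On the WT arrays Ndufaf4 had 0.06 on the probe set used and -0.55 on its second one, so that sign was not settled. All 9 complex III genes and all 16 measured complex IV genes were lower in WT TA than in WT heart. The lowest of complex III were Uqcrc1 at -0.57, Uqcrq at -0.53 and Uqcr11 at -0.49, while Uqcrb was nearest to 0 at -0.03. Uqcr10 had -0.34 on the probe set used and 1.16 and 1.03 on its dimmer ones, so its direction was not settled. In complex I the NADH-binding subunit gene Ndufv1 had a signal of 12726 in WT TA and 18694 in WT heart, 1.47-fold lower in TA, and -0.61 and -0.93 on its other probe sets. Ndufv3 was 1.39-fold lower, and Ndufa2 was the highest bright gene, with 15958 in WT TA and 13426 in WT heart, 1.19-fold higher in TA. The farthest from 0 were dim or assembly genes: Ndufb1 was 1.21-fold lower in KO TA than in KO heart and 2.51-fold lower in WT TA than in WT heart.

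Ndufaf6 had the highest ratio of TA over heart of the 88 measured genes on both pairs of arrays. Its signal was 1558 in KO TA and 976 in KO heart, a ratio of 0.68, and 2580 in WT TA and 878 in WT heart, 2.94-fold higher in TA. Ndufaf5 was 1.22-fold higher in WT TA than in WT heart, whereas Ndufaf2 was 1.66-fold lower, Ndufaf7 1.39-fold and Ndufaf3 1.30-fold. In complex II, Sdhd had -0.45, Sdha -0.39, Sdhb -0.17 and Sdhc 0.03, with -0.71 on the other probe set of Sdhc. In complex V the farthest were Atp5md at -0.32, Atp5d, the delta subunit gene of the head, at -0.30 and Atp5g1, a gene of the c ring, at -0.28. The c ring protein has 3 genes that encode the same mature protein, and the other two stood at 0.10 for Atp5g2 and -0.15 for Atp5g3.

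Complex IV holds the paired tissue isoforms. The heart and muscle isoform genes differed by no more than 1.13-fold between WT TA and WT heart. Cox6a2 had signals of 24110 in KO TA, 24159 in WT TA, 27288 in KO heart and 27394 in WT heart. Cox7a1 had 16063 in KO TA, 17731 in WT TA, 14951 in KO heart and 18033 in WT heart. Cox8b had 22976 in KO TA, 21611 in WT TA, 21890 in KO heart and 22326 in WT heart. Their wild-type ratios of TA over heart were -0.18, -0.02 and -0.05.

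Of the ubiquitous partners, Cox6a1 and Cox8a were further below 0, whereas Cox7a2 was nearly level on the probe set used only. Cox6a1 had signals of 16278 in KO TA, 19123 in WT TA, 24954 in KO heart and 25601 in WT heart, 1.34-fold lower in WT TA than in WT heart, and -1.23 on its second probe set. Cox8a had 5617 in KO TA, 6221 in WT TA, 8500 in KO heart and 9657 in WT heart, 1.55-fold lower in WT TA, and -0.63 on its second probe set. Cox7a2 had 35983 in KO TA, 38546 in WT TA, 39598 in KO heart and 40395 in WT heart, 1.05-fold lower in WT TA, and -0.25 on its second probe set. Within each of the 3 pairs the muscle isoform gene had the higher ratio, by 0.45 on average on the KO arrays and 0.29 on the WT arrays. Cox7a2l, related to Cox7a2 and known for joining complexes III and IV, was 1.38-fold lower in WT TA. Of the testis isoforms, Cox6b2 was at least 2.05-fold lower in WT TA and Cox8c 1.59-fold lower, both dim. Cox7c, also dim, was 2.07-fold lower. By genotype, Cox7a1 was 1.10-fold lower in KO TA and 1.21-fold lower in KO heart, Cox6a1 1.17-fold and 1.03-fold lower, and Cox8b 1.06-fold higher in KO TA and 1.02-fold lower in KO heart. Of the other pairs, Cox6b1 had a ratio of TA over heart of -0.18 and Ndufa4 of -0.30, and its dim paralog Ndufa4l2 of -0.28.

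**Figure D5:**
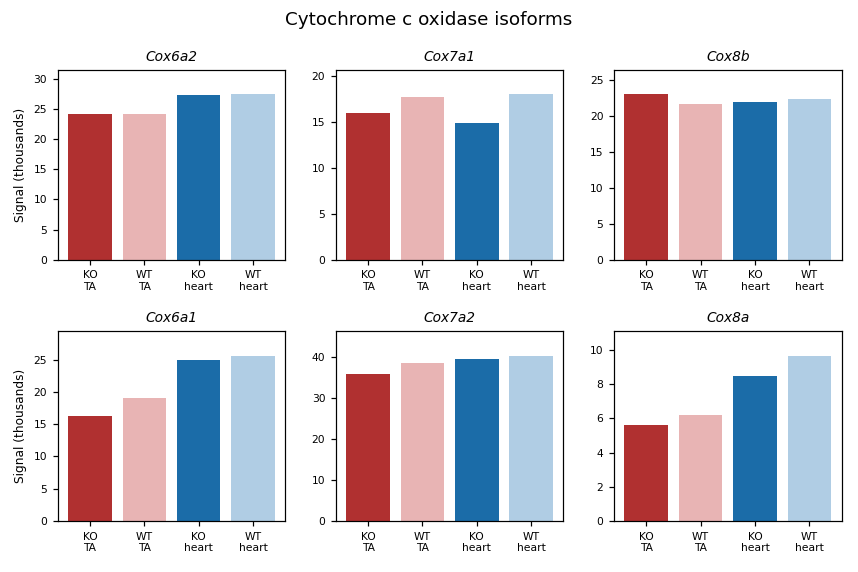
Signal in units of 1000 on a linear scale from 0 of cytochrome c oxidase isoform genes on the 4 arrays, 1 array of pooled RNA per bar, with heart and muscle isoforms in the upper row and ubiquitous isoforms in the lower row. Bars of the upper row and of Cox7a2 are nearly level across tissues, whereas Cox6a1 and Cox8a are lower in TA (19123 and 6221 in WT TA, against 25601 and 9657 in WT heart). Only the probe set used for each gene is drawn, and a second one of Cox7a2 gave a wild-type ratio of TA over heart of -0.25.

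The promoters of the Cox8 pair are shown because its ratios of TA over heart on the WT arrays were the furthest apart of the 3 pairs on the probe sets used. Those of the Cox7a pair, whose ratios were close there, stand beside them. On the KO arrays Cox7a1 had 0.10 and Cox7a2 -0.14. The second probe sets of the Cox6a pair were far apart on the WT arrays, at -0.15 for Cox6a2 and -1.23 for Cox6a1. Cox6a2 was not in the table, and the window of its partner Cox6a1 held the ETS motif and the sites of nuclear respiratory factor 1 described after the sequences. They run from 250 bases before to 50 after the start of the gene, from RefSeq on GRCm38.p6, 5′ to 3′ on the strand of the gene, with ETS motifs (CCGGAAG, which reads CTTCCGG where it lies on the opposite strand) in capitals. Cox8b is at chr7:140900397-140900696 (minus strand), Cox8a at chr19:7217567-7217866 (minus strand), Cox7a1 at chr7:30183921-30184220 (plus strand) and Cox7a2 at chr9:79759804-79760103 (minus strand).
Cox8b: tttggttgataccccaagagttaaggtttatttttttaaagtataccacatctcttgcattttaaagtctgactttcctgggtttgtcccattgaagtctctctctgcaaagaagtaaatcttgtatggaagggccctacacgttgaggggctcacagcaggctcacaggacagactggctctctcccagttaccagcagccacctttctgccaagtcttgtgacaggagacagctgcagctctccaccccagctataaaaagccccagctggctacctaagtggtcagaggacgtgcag
Cox8a: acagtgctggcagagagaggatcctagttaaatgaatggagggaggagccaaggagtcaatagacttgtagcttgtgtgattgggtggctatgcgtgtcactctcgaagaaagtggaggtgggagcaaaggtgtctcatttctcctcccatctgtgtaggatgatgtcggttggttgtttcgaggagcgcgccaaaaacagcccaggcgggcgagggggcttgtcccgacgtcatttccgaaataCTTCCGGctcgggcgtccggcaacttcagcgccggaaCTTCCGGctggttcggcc
Cox7a1: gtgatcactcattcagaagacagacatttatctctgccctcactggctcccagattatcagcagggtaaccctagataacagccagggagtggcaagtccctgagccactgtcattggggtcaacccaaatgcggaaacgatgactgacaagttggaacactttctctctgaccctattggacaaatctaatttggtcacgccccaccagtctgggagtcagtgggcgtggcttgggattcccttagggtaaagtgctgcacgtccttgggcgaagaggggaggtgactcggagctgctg
Cox7a2: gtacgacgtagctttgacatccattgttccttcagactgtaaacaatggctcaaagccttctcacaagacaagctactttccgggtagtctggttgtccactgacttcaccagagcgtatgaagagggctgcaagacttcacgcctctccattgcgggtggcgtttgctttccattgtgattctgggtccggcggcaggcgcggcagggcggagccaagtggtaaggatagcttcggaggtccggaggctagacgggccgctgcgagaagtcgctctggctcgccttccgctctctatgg
The window of Cox8b holds 2 CpG dinucleotides and that of Cox7a1 7, against 19 in Cox8a and 20 in Cox7a2. Cox8a has the ETS motif at 2 places, and the other windows have none of the motifs searched.

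Promoters were matched by gene ID for 74 of the 91 genes. With the window richest in CpG dinucleotides taken for each gene, the median was 20 CpG dinucleotides, against 15 over 17492 protein-coding genes. Motifs were searched on both strands. The longer of 2 sites of nuclear respiratory factor 1 was in the windows of 6 of the 74 genes (8.11%), against 1.07% of all 27025 genes with a window and 1.47% of protein-coding genes, and its core GCATGCGC, which lies inside it, in 11 (14.9%), against 3.05% and 3.94%. The ETS motif was in 19 (25.7%), against 9.93% and 12.9%. The motif of oestrogen-related receptors, TCAAGGTCA, was in 2 (2.7%), Sdhd and Atp5g3, against 0.466% and 0.377%. A match describes the letters of a window only, and its bearing on the signals was not tested.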

How the data were processed

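RNA of TA and heart was measured on 4 Affymetrix arrays, 1 for each genotype and tissue. The deposited values are signal intensities on a linear scale, made by the authors with MAS5, as the submitters' processing notes state; which version, scaling target and detection calls were used is not given. Trimmed means (2% off each end) lay between 496.35 and 496.83, so ratios were taken without rescaling. Of 45037 probe sets, 34945 had 1 gene symbol in the platform annotation, 932 several and 9160 none, and only the first were used; 180 belong to the 91 genes, all of which matched RefSeq by gene identifier. For 47 of the 91 the probe set used has a suffix that marks possible matches to several transcripts, 19 of them to other genes, so pseudogenes or paralogs may add to these signals. Ratios are log2 of signals raised to the floor. With 1 array a group no test was run, and the number of arrays limits the precision. Named genes were, in each complex, the 2 highest and 2 lowest ratios of each knockout comparison and the 3 ratios of TA over heart furthest from 0; members past 1.5-fold; a set of core subunits; the isoform pairs; and in each further list the 2 genes furthest from 0 each way. Hhatl, Cycs, Cidea, Uqcr10, Ndufaf1, Ndufaf3, Ndufaf8, and between tissues Ndufa2, Ndufaf5 and Uqcrb were added after their values were seen. Cox7b was not analysed here. The members and lists were chosen with earlier results of these data known, and the limit of 10000 for bright genes was set after seeing the data. Python 3.11.15, numpy 2.4.6 and pandas 2.3.3 were used, and the computation was tested on simulated data. Alternatives were the scaling of the arrays, the floor and the choice of probe set.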

Additional observations from a re-analysis of the deposited data

Results flagged for a closer look

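Ndufb1 stood on opposite sides of 0 in the 2 tissues, 1.67-fold higher in KO TA and 1.24-fold lower in KO heart, a difference of the log2 ratios of 1.06. With 1 array a group this difference was not tested. Among the 10 probe sets that the annotation assigns to several genes, at least one of them a subunit, and that no comparison above uses, 1 had a signal of 274 in KO heart and 137 in WT heart, 2-fold higher. The 6 such probe sets with a signal of at least 1000 on every array lay between -0.20 and -0.04 in TA and between -0.23 and -0.07 in heart.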

How the results depend on the processing

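The members' median log2 ratio of KO over WT in TA stayed below 0 under all 9 alternatives, from -0.113 to -0.051. It was -0.051 with quantile normalization within the tissue and -0.0511 over all 4 arrays, and the count at least 1.2-fold lower was then 7 over all arrays; without probe sets that can match several transcripts it was 5 of 67 genes measured. With the 75th percentile as floor 0 were 1.2-fold higher. In heart the median ran from -0.09 to -0.03; 6 genes were 1.2-fold lower with quantile normalization over all arrays, and 1 was higher with the 75th percentile as floor and 4 without a floor. For TA over heart in the wild type the median was -0.0924 with centred ratios, with 20 genes 1.2-fold lower, and -0.25 on the KO arrays; 4 genes were 1.2-fold higher with the 25th percentile as floor and 5 without a floor. The mean gap of the isoform pairs was 0.46 with the median over probe sets and 0.45 on the KO arrays. For the difference between tissues the median was -0.0049 and -0.0062 with quantile normalization over all arrays and within a tissue, and genes past 1.2-fold on the higher side numbered 5 with quantile normalization within a tissue, with the 25th percentile as floor and without a floor; on the lower side they numbered 2 with the 25th percentile as floor, 3 without a floor, 2 with the median over probe sets and 3 without probe sets that can match several transcripts, where 34 lay below 0. Ndufv1 in TA turned to 0.0241 with quantile normalization over all arrays, to 0.0184 within a tissue, and to 0.0746 without probe sets of several transcripts. Uqcr10 between tissues turned to 1.03 with the median over probe sets and 1.16 without those probe sets. The difference between tissues turned to 0.0014 for Sdhd with the median over probe sets and to 0.26 for Ndufs8 without those probe sets. The cause of these changes was not tested. Leaving out replicates could not be done with 1 array a group, which also limits the precision of every ratio. No paired analysis was possible because each group has 1 array and the labels give no replicate numbers.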
